A study of Mus musculus with 12 samples.

Results

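Bile acid synthesis, transport and FXR signalling were described through 10 genes of the liver, found as the rows of the count table that carry their symbols: Cyp7a1, Cyp8b1, Cyp27a1, Cyp7b1, Slc27a5, Baat, Slc10a1, Abcb11, Nr1h4 and Nr0b2. Each symbol matched 1 row of 56748 genes. Poly-A RNA was sequenced from 12 mouse libraries in 4 groups of 3. The 6 livers came from C57BL/6 mice on a high fat diet, which took 60% of its calories from fat and lasted 8 weeks. In 3 of them the liver overexpressed ABHD6, a monoacylglycerol hydrolase, from AAV8-TBG-ABHD6, an adeno-associated virus given by tail vein whose TBG promoter is active in hepatocytes. The other 3 were GFP controls, labelled WT. The 6 cultures were primary hepatocytes that received an siRNA to ABHD6 (labelled ABHD6 knockdown) or a scrambled siRNA (labelled WT, siScramble), with no treatment besides. The sources used here do not give the age or sex of the mice, the time in culture, or the diet of the mice that gave the hepatocytes. The labels name biological replicates, but not whether cultures came from separate mice, so p-values in culture may measure technical spread only.

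Hepatocytes make bile acids from cholesterol by a classic route that starts with Cyp7a1, the rate-limiting enzyme, and an alternative route that starts with the side-chain hydroxylase Cyp27a1 and continues with the oxysterol hydroxylase Cyp7b1. Cyp8b1 adds the hydroxyl group that makes cholic acid. Slc27a5 activates bile acids with coenzyme A, and Baat joins them to taurine or glycine. Slc10a1 (NTCP) takes bile acids up from the blood with sodium and Abcb11 (BSEP) pumps them into the bile canaliculus. Nr1h4 encodes FXR, the nuclear receptor that senses bile acids, and Nr0b2 encodes SHP, an FXR-induced repressor of Cyp7a1 and Cyp8b1.

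Library totals ran from 12295733 to 16234658 counts, and 19776 to 20934 genes had a count in a library. Levels below are CPM, counts scaled to library size with TMM factors over all 12 libraries. Levels of different genes are set side by side only as TPM, a scale that also takes gene length into account. The targeted gene followed its labels: Abhd6 was at 32.2 to 57.2 CPM in GFP livers and 136 to 241 CPM in overexpressing livers, and at 25.7 to 27.9 CPM with scrambled siRNA and 3.78 to 4.06 CPM with the ABHD6 siRNA. The 11 hepatocyte marker genes summed to between 91674 and 154727 CPM in livers and between 13012 and 13795 CPM in cultures, with none at 0 in any library. Markers of sinusoidal endothelium summed to 155 to 214 CPM in livers and 10.4 to 12.4 CPM in cultures, those of stellate cells to 131 to 444 and 1.56 to 4.54 CPM, of Kupffer cells to 168 to 378 and 49.9 to 66.2 CPM, of lymphocytes to 6.28 to 23.4 and 0.107 to 0.496 CPM, and of red cells to 173 to 265 and 4.35 to 6.63 CPM. Cholangiocyte markers summed to 55.0 to 105 CPM in livers and 516 to 686 CPM in cultures, while their mean log2 CPM overlapped, at 1.05 to 1.94 in livers and 1.30 to 1.60 in cultures. In a culture, 2 to 4 of the 7 Kupffer markers, 1 to 4 of the 7 stellate markers, 2 to 4 of the 5 lymphocyte markers and 1 to 2 of the 6 cholangiocyte markers had 0 counts. In bulk samples, fewer cells of a type and less RNA per cell cannot be told apart.

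Per unit length, the 10 genes were abundant in the liver and fell into an order that was much the same in both liver groups. Slc27a5 was highest in GFP livers at 964 ± 44.7 TPM (SD, n = 3), rank 113 of the 21970 protein-coding genes. Slc10a1 followed at 810 ± 181 TPM and Cyp27a1 at 517 ± 57.4 TPM. The middle of the order was held by Cyp8b1 at 423 ± 255 TPM, Baat at 329 ± 31.0 TPM, Cyp7b1 at 287 ± 376 TPM and Abcb11 at 242 ± 40.2 TPM, and these neighbours lay within each other's spread. Nr1h4 stood at 178 ± 11.8 TPM and Nr0b2 at 110 ± 38.0 TPM. Cyp7a1, the rate-limiting enzyme, was the lowest of the 10 at 71.2 ± 42.6 TPM, rank 1369. In overexpressing livers the top 3 were the same genes, and the last places were held by Cyp7a1 at 91.1 ± 9.75 TPM and Nr0b2 at 75.2 ± 7.01 TPM, whose means differed by little more than their spread.

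**Figure D1:**
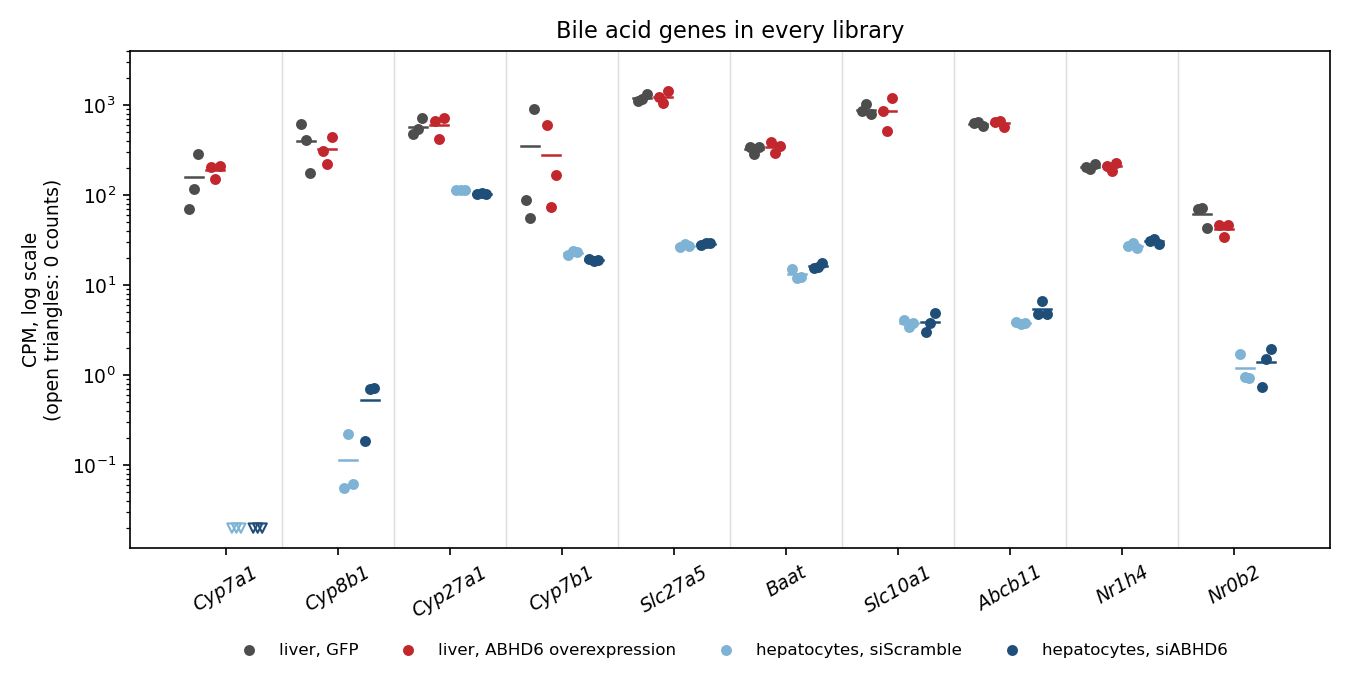
CPM on a log scale (y axis) of each of the 10 genes (x axis) in every library, coloured by group, with short lines for group means and open triangles for libraries with 0 counts. Liver points lie above culture points for every gene, and Cyp7b1 has the widest spread among livers, from 55.2 to 902 CPM.

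Whether extra ABHD6 in the liver moved bile acid genes was asked by comparing the 3 overexpressing livers with the 3 GFP livers. None of the 10 genes passed the test in edgeR (adjusted p of 1.00 for each), with 1 of 10 at an unadjusted p under 0.05. The same fit called 0 of 13910 genes, a background of 0%, with 301 at an unadjusted p under 0.05. DESeq2 called 10 genes of all those it tested, and none of the 10 bile acid genes. The median log2 fold change was 0.02 over the 10 genes and -0.01 over all genes tested. Abhd6 itself differed by 2.04 on the log2 scale (SE 0.28) without passing the adjusted threshold in this fit. It did pass in another of the settings tried. The spread between livers was a biological coefficient of variation of 28.1%, and its part in what was called was not tested. A gene not called here cannot be read as unchanged.

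Cyp7a1 was at 69.9, 117 and 285 CPM in GFP livers 1 to 3 and at 206, 151 and 211 CPM in overexpressing livers 1 to 3. All overexpressing livers lay inside the GFP range, which was 4.08-fold wide from its lowest to its highest liver. The log2 fold change was 0.27 (SE 0.47), and it ran from -0.08 without GFP liver 1 up to 1.02 without GFP liver 3. Cyp8b1 was at 619, 405 and 177 CPM in GFP livers and 311, 220 and 437 CPM in overexpressing livers. Here too the treated livers lay inside the control range, with a log2 fold change of -0.31 (SE 0.45). Among GFP livers these hydroxylases ran in opposite order, with GFP liver 1 lowest for Cyp7a1 and highest for Cyp8b1, and GFP liver 3 the reverse. Among overexpressing livers they ran in the same order, with liver 2 lowest and liver 3 highest for both.

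Cyp7b1 varied more between livers than any other gene of the set, with a 16.3-fold range over the 6 livers. It was at 89.1, 55.2 and 902 CPM in GFP livers and 602, 73.3 and 168 CPM in overexpressing livers. GFP liver 3 and overexpressing liver 1 stood far above the other livers, and they belong to different groups. The log2 fold change was -0.30 (SE 1.14), and it turned to 1.96 without GFP liver 3 and to 0.75 without both of those livers. A list of 10 acute-phase genes, which hepatocytes induce in inflammation, was highest in the same livers: it summed to 66575 CPM in GFP liver 3 and 31001 CPM in overexpressing liver 1, against 9483 to 12189 CPM in the other 4. Its part in the Cyp7b1 levels was not tested. Over the 6 livers, Eprs, an aminoacyl-tRNA synthetase, was the protein-coding gene most like Cyp7b1 of 10858 compared, with a Pearson r of 0.999 on log2 CPM, a likeness sought after the values were seen and resting mainly on those livers.

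Cyp27a1 held a narrower range, at 470, 536 and 710 CPM in GFP livers and 660, 416 and 716 CPM in overexpressing livers, and the GFP livers lay inside the overexpressing range. Its log2 fold change was 0.07 (SE 0.26). The conjugating enzymes were the steadiest of the synthetic genes. Slc27a5 was at 1098, 1150 and 1313 CPM in GFP livers and 1230, 1041 and 1424 CPM in overexpressing livers, a log2 fold change of 0.06 (SE 0.20). Baat was at 337, 286 and 343 CPM against 386, 290 and 347 CPM, a log2 fold change of 0.09 (SE 0.16). Overexpressing liver 2 was the lowest of its group for every gene of the set but Abcb11, for which it was the highest.

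Of the transporters, Slc10a1 was at 848, 1014 and 800 CPM in GFP livers and 865, 509 and 1209 CPM in overexpressing livers. Its lowest and highest values both came from overexpressing livers, and the log2 fold change was -0.04 (SE 0.31). Abcb11 was the gene that varied least, with only a 1.18-fold range over the 6 livers. It was at 633, 650 and 584 CPM in GFP livers and 650, 671 and 567 CPM in overexpressing livers, a log2 fold change of 0.02 (SE 0.16).

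The FXR gene Nr1h4 was nearly as steady, at 207, 192 and 219 CPM in GFP livers and 209, 187 and 228 CPM in overexpressing livers. Its log2 fold change was 0.02 (SE 0.13). Nr0b2, the FXR-induced repressor, was at 69.5, 71.0 and 43.3 CPM in GFP livers and 46.2, 34.3 and 46.3 CPM in overexpressing livers. GFP livers 1 and 2 stood above every overexpressing liver, while GFP liver 3 lay within their range. The log2 fold change was -0.53 (SE 0.22), the only one of the 10 at an unadjusted p under 0.05 in edgeR. It was negative in each of the alternatives tried, from -0.80 to -0.40. The unadjusted p held less well. It was not under 0.05 in either FPKM fit, with the replicate block, or without GFP liver 1, GFP liver 2 or any single overexpressing liver.

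**Figure D2:**
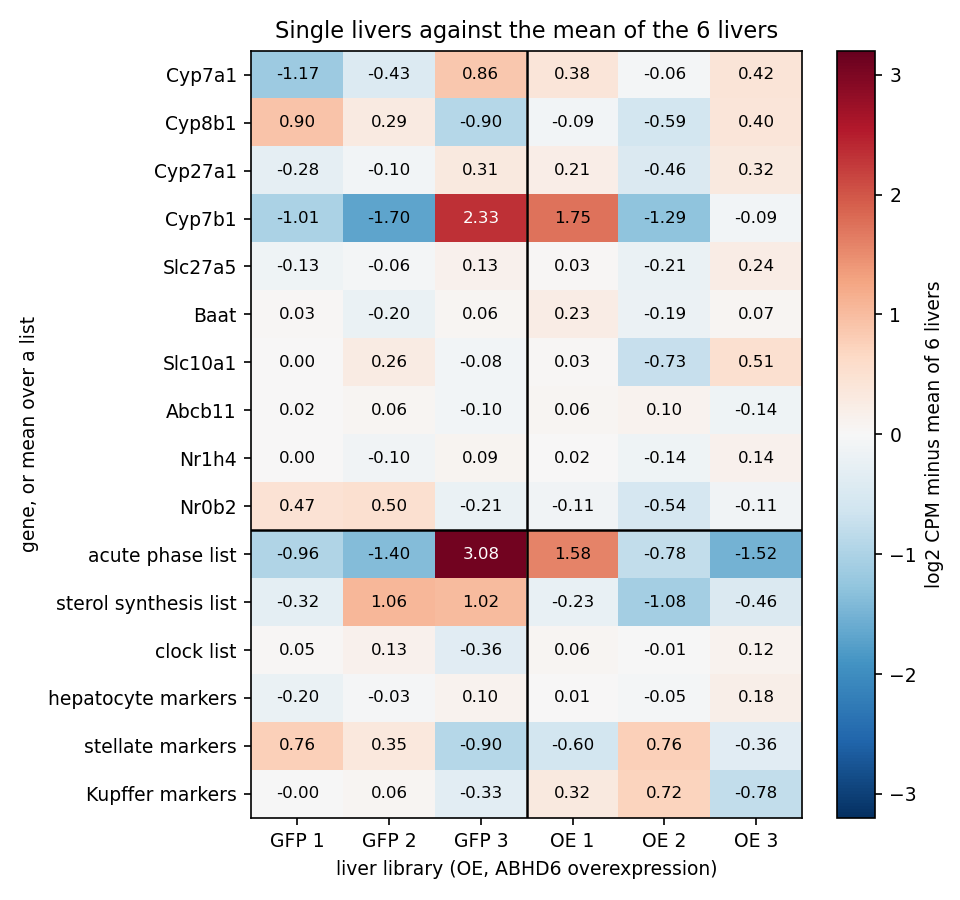
Log2 CPM of each bile acid gene, and the mean over each context or marker list (y axis), as the difference from the mean of the 6 livers, for each liver (x axis). GFP 3 and OE 1 (ABHD6 overexpression) have the highest Cyp7b1 (2.33 and 1.75) and the highest acute-phase list (3.08 and 1.58), and Abcb11 and Nr1h4 stay within 0.14 of the mean in every liver.

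The livers with high acute-phase genes, GFP liver 3 and overexpressing liver 1, were not together the highest or the lowest for any other gene of the set. They were together the lowest for stellate markers (-0.90 and -0.60 from the liver mean, on the log2 scale). The same held for the wider lists of synthesis (-0.25 and -0.10), uptake (-0.37 and -0.31), canalicular export (-0.57 and -0.13) and basolateral export (-0.68 and -0.34). These are means of log2 CPM, in which genes near 0 weigh as much as abundant ones. By summed CPM it held for the stellate and export lists only. Summed synthesis genes were lowest in GFP liver 2 (9167 CPM) and summed uptake genes in overexpressing liver 2 (2020 CPM). The part of these lists was not tested either. Cyp8b1 lay 0.90 below the liver mean on the log2 scale in GFP liver 3 and 0.09 below it in overexpressing liver 1. A list of 8 sterol synthesis genes differed between livers as well, from -1.08 in overexpressing liver 2 to 1.06 in GFP liver 2 relative to the liver mean. Clock genes, which drive daily cycles of Cyp7a1, stayed between -0.36 and 0.13 of the liver mean, with GFP liver 3 the lowest. The part of sterol or clock genes in these levels was not tested. By the likeness measure applied to all 12 libraries after removing the mean of each system, the genes most like Cyp7a1 were Zfp141 (Pearson r of 0.97), Rpl37a (0.96) and Fam234b (0.96) of 10858 genes. Cyp7a1 had no counts in culture, so only the 6 livers add to the covariation. The spread of the other gene in culture still enters r and so the ranking. Over the 6 livers alone, a likeness sought after the values were seen, other genes were most like Cyp7a1. These were Ubtf (Pearson r of 0.995), Lpgat1 (0.993) and Fam193a (0.988).

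Among 47 further genes of bile acid synthesis, transport and regulation, 40 were tested in livers and none was called in edgeR, with none at an unadjusted p under 0.05. DESeq2 called none of them either. The smallest p belonged to Abcg5, part of the canalicular sterol exporter, at a log2 fold change of 0.27 (SE 0.15). Abcg2, an efflux pump, stood at 0.32 (SE 0.19) and Slc27a2, a very long chain acyl-CoA synthetase, at 0.39 (SE 0.24). Their median was 0.02, beside -0.01 for all genes tested.

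Knockdown of ABHD6 was asked about in cultured hepatocytes, where replicates lay close together, with a biological coefficient of variation of 4.93%. Cyp27a1 and Cyp7b1 were slightly lower and called. Of the 8 genes tested 6 had a positive log2 fold change, and none of these passed the threshold with all libraries in the fit. Of the 10 genes 8 had enough counts to be tested. Of these 2 were called (25%), a share near the background of 15.4% (2075 of 13449 genes). At an unadjusted p under 0.05 there were 5. The median log2 fold change over the 8 was 0.10, beside 0.00 for all genes tested.

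Cyp27a1 was at 113, 113 and 112 CPM with scrambled siRNA and 102, 104 and 103 CPM with the ABHD6 siRNA. The groups did not overlap, and the log2 fold change was -0.15 (SE 0.04, adjusted p = 0.0126 in edgeR). Cyp7b1 was at 21.7, 24.0 and 23.1 CPM with scrambled siRNA and 19.5, 18.4 and 18.9 CPM with the ABHD6 siRNA, again without overlap. Its log2 fold change was -0.29 (SE 0.08, adjusted p = 0.0110 in edgeR). These calls were close to the threshold: that of Cyp27a1 was lost without siScramble 1 (adjusted p = 0.0510) and that of Cyp7b1 without siScramble 2 (0.0637) and in DESeq2 (0.0584). Neither was called in a fit over all 12 libraries, where the larger spread of the livers enters. The share of all genes whose culture groups did not overlap is not reported here.

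The other tested genes did not pass. Abcb11 was at 3.84, 3.73 and 3.81 CPM with scrambled siRNA and 4.71, 6.63 and 4.78 CPM with the ABHD6 siRNA. Every ABHD6 siRNA culture was higher than every control culture, at a log2 fold change of 0.49 (SE 0.17, adjusted p = 0.0599 in edgeR), and it was called without siABHD6 1 (0.0441). Baat was at 15.2, 12.1 and 12.3 CPM against 15.4, 16.0 and 17.5 CPM, a log2 fold change of 0.28 (SE 0.10, adjusted p = 0.0711). Its groups were separated by a narrow gap, and it was called without siScramble 1 (0.0178).

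Nr1h4 was at 27.1, 29.1 and 26.0 CPM with scrambled siRNA and 30.9, 32.4 and 28.8 CPM with the ABHD6 siRNA, with overlapping groups and a log2 fold change of 0.15 (SE 0.07, adjusted p = 0.147 in edgeR). Slc27a5 ran from 26.4 to 28.4 CPM in control cultures and from 27.8 to 29.3 CPM with the ABHD6 siRNA, a log2 fold change of 0.05 (SE 0.06). Slc10a1 had overlapping groups, at 3.46 to 4.12 CPM and 2.98 to 4.84 CPM, with a log2 fold change of 0.01 (SE 0.20). Nr0b2 was at 0.921 to 1.69 CPM and 0.744 to 1.94 CPM, a log2 fold change of 0.21 (SE 0.36).

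Cyp8b1 and Cyp7a1 were too low in culture to be tested. Cyp8b1 had 1, 4 and 1 counts with scrambled siRNA and 3, 13 and 12 counts with the ABHD6 siRNA. Its summed level was 0.116 CPM with scrambled siRNA (exact Poisson 95% interval 0.0424 to 0.251) and 0.545 CPM with the ABHD6 siRNA (0.362 to 0.788), intervals that cover counting error only. With no filter on low counts the log2 fold change was 2.15 (SE 0.75, adjusted p = 0.0513 in edgeR). Without siABHD6 1 or any single siScramble culture Cyp8b1 passed the filter, through the counts of siABHD6 2 and 3 alone. In those edgeR fits it was called without siABHD6 1 (0.0192) and without siScramble 2 (0.0475), but not without siScramble 1 or 3. A gene that enters a test through its higher group alone gives no independent support for a rise. Cyp7a1 had 0 counts in all 6 cultures.

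Of the further bile acid genes, 37 were tested in hepatocytes and 8 were called (21.6%), 3 higher and 5 lower, a share near the background of 15.4% over all genes. Hsd17b4, the peroxisomal multifunctional enzyme of side-chain shortening, had the largest log2 fold change among the called genes. It was at 132, 128 and 131 CPM with scrambled siRNA and 81.5, 83.2 and 88.0 CPM with the ABHD6 siRNA. Its groups lay well apart, at a log2 fold change of -0.65 (SE 0.04). Acox2, the oxidase of the same peroxisomal steps, fell by 0.18 on the log2 scale, and the export pumps Abcc2 and Abcc3 fell by 0.16 and 0.18. Nr1i2 (PXR, a xenobiotic receptor) rose by 0.35, Hnf4a, a master regulator of hepatocyte genes, by 0.23, and Rxra, the partner of FXR, by 0.13. Without siScramble 2 or without siABHD6 3 the count fell to 5.

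Whether the genes responded differently in culture and in liver was tested as the difference between the log2 fold changes in a fit over all 12 libraries. None of the 10 was called, beside a background of 0.125% (19 of 15244 genes), with 1 at an unadjusted p under 0.05, and DESeq2 called none. That gene was Abcb11, with a difference of 0.49 (SE 0.19, unadjusted p = 0.0229, adjusted p = 0.655 in edgeR). For Cyp7a1 the difference could not be estimated, because the cultures held no counts. The liver arm raises ABHD6 and the culture arm lowers it, so these are differences between unlike manipulations.

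The largest contrast in these data was between culture and liver, read as siScramble hepatocytes against GFP livers. All 10 genes were lower in culture and called, beside a background of 70.3% called in either direction and 36.9% called lower (5251 of 14215 genes). Of the 10, 8 were lower by at least 8-fold, beside 10.6% of all genes tested. Cyp7a1 and Cyp8b1 are counted in both, but they passed the count filter through the livers alone, so no call but lower was open to them. The median log2 fold change was -5.58 over the 10 genes, -4.50 over the 11 hepatocyte markers, all of them lower, and -0.03 over all genes tested. The median of the 10 is the same with Cyp7a1, which had no counts in culture, set at its bound given below. Virus and culture differ together between these groups, as do the other cell types whose markers are given above, and they cannot be told apart. Whether the diet differed as well is not given in the sources used here.

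The scaling matters here more than elsewhere. Scaling to the library total moved the median of all genes from -0.03 to 0.80. All 10 genes were still called lower, with a median of -4.76, beside 2923 of 14215 genes called lower and 8388 called higher. Scaling to the summed hepatocyte markers moved the median of all genes to 3.25. With that scaling 945 of all 14215 genes were called lower and 12354 called higher, so most genes turned to higher. Relative to hepatocyte markers 7 of the 10 were still called lower, with a median of -2.29. Cyp27a1 turned to higher (0.90, adjusted p = 0.0031 in edgeR), as most genes did. Nr1h4 (0.34, adjusted p = 0.0559) and Cyp7b1 (-0.79, adjusted p = 0.455) were not called.

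The classic route was the part of synthesis that fell furthest. Cyp7a1 went from 69.9, 117 and 285 CPM in GFP livers to 0 counts in every culture. Against a floor of 3 counts per library it was at least 854-fold lower, and at least 507-fold lower without GFP liver 3 in the liver mean. Cyp8b1 fell to 0.0565, 0.223 and 0.0614 CPM from 177 to 619 CPM, a log2 fold change of -11.68 (SE 0.75, adjusted p = 1.46e-05 in edgeR). On summed counts this was a 3468-fold difference, with a counting interval of 1594 to 9451. The 28 counts in siABHD6 cultures left Cyp8b1 735-fold below GFP livers (508 to 1106).

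Cyp27a1 and Cyp7b1, named above with the alternative route, kept more of their expression. Cyp27a1 retained 19.7% ± 0.0946 of the GFP liver mean in siScramble cultures (SD over cultures, n = 3), the highest share of the 10 with all livers in the mean. Its log2 fold change was -2.37 (SE 0.17) and turned positive when scaled to hepatocyte markers. Cyp7b1 retained 6.58% ± 0.337 of a liver mean that GFP liver 3 dominates. Without GFP liver 3 in the mean the order turned, with 31.8% ± 1.63 retained for Cyp7b1 and 22.4% ± 0.108 for Cyp27a1. Its log2 fold change was -3.95 (SE 1.07, adjusted p = 0.0134 in edgeR), and -1.67 without GFP liver 3. The call was lost without siScramble 1 (adjusted p = 0.0508).

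Both conjugating enzymes fell, Slc27a5 further than Baat. Slc27a5 retained 2.31% ± 0.0842 of its liver level, a log2 fold change of -5.46 (SE 0.14, adjusted p = 6.13e-07 in edgeR). Baat retained 4.11% ± 0.545, a log2 fold change of -4.63 (SE 0.15), close to the hepatocyte marker median.

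Both transporters lost nearly all of their expression. Slc10a1, from 800 to 1014 CPM in GFP livers, was at 4.12, 3.46 and 3.81 CPM in siScramble cultures, a log2 fold change of -7.89 (SE 0.18) with 0.428% ± 0.0376 retained. Abcb11, from 584 to 650 CPM, was at 3.84, 3.73 and 3.81 CPM, a log2 fold change of -7.38 (SE 0.13) with 0.610% ± 0.00869 retained. In ABHD6 siRNA cultures the shares were 0.434% ± 0.105 for Slc10a1 and 0.864% ± 0.175 for Abcb11.

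The regulators parted. Nr1h4 (FXR) retained 13.3% ± 0.767, at a log2 fold change of -2.94 (SE 0.10, adjusted p = 1.12e-06 in edgeR) that became 0.34 when scaled to hepatocyte markers. Nr0b2 (SHP), at 1.69, 0.948 and 0.921 CPM in siScramble cultures, retained 1.94% ± 0.717, at a log2 fold change of -5.70 (SE 0.31). In siScramble cultures the order per unit length was therefore led by Cyp27a1 at 219 ± 1.62 TPM, then Nr1h4 at 50.1 ± 2.83 TPM, Slc27a5 at 47.4 ± 1.46 TPM and Cyp7b1 at 44.6 ± 2.03 TPM. The neighbours from Nr1h4 to Cyp7b1 lay within or near each other's spread, and Baat followed at 28.7 ± 4.0 TPM. The last 5 were Slc10a1 at 7.28 ± 0.682 TPM, Nr0b2 at 4.43 ± 1.67 TPM, Abcb11 at 3.11 ± 0.0613 TPM, Cyp8b1 at 0.245 ± 0.203 TPM and Cyp7a1 with no counts. The order was the same in siABHD6 cultures.

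**Figure D3:**
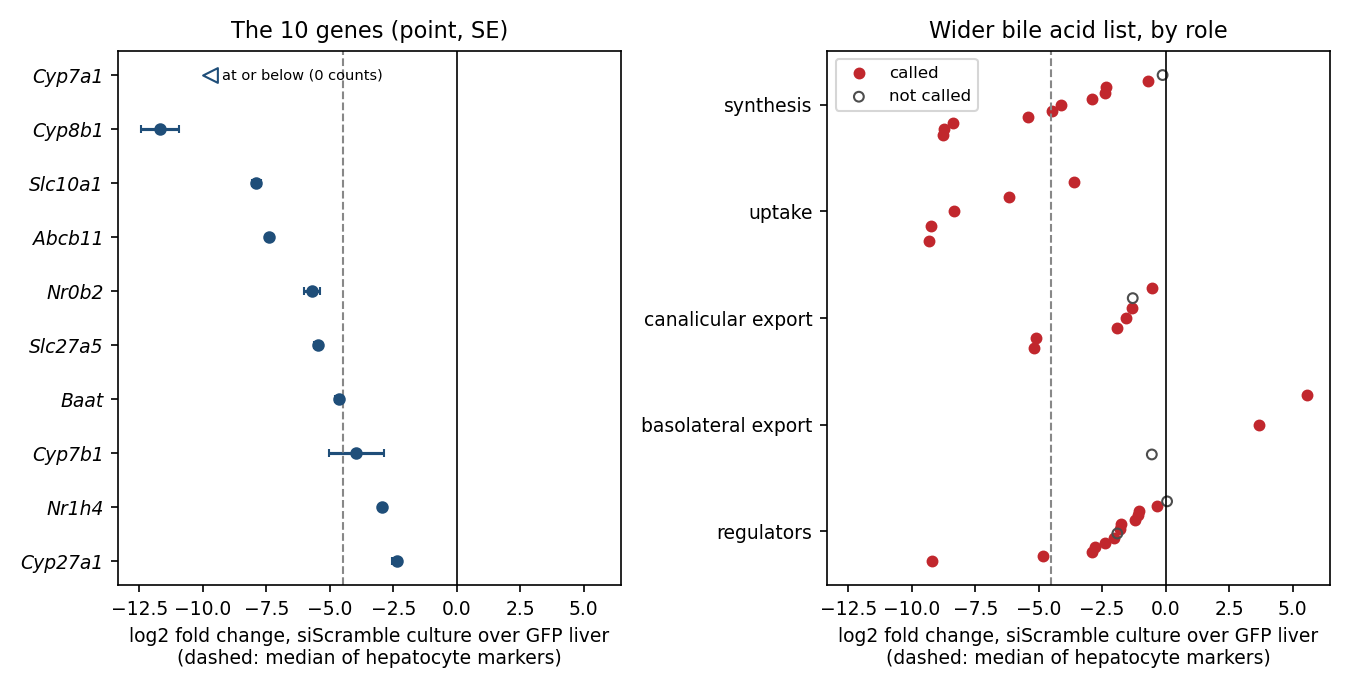
Log2 fold change of siScramble culture over GFP liver (x axis) for the 10 bile acid genes with SE bars (left), and for 40 further bile acid genes by role (right, filled points called). The dashed line is the hepatocyte marker median of -4.50, the open arrow for Cyp7a1 marks a bound of at least 854-fold lower (507-fold without GFP liver 3), and Abcc1 and Abcc4 are the points that rose.

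Most genes of the wider set were lower in culture as well. Of 40 genes tested 33 were called lower and 2 higher, with a median log2 fold change of -2.35. Of all 14215 genes 5251 (36.9%) were called lower and 4740 higher, the background for the counts by role below as well. With library-total scaling 26 of the 40 were lower and 4 higher, beside 2923 lower and 8388 higher of all genes. Scaled to hepatocyte markers 14 were lower and 22 higher, beside 945 lower and 12354 higher of all genes. Cyp46a1, Nr1i3, Slco1a4, Slco2b1 and Akr1d1, with few counts in culture, also passed the count filter through the livers alone. No call but lower was open to them. Slco1a4 had 4 to 10 counts in a culture, Slco2b1 3 to 17 and Akr1d1 7 to 30, with a mean of 8.67 in siScramble cultures. All 5 uptake carriers were lower, with a median of -8.33, the value of Slco1a4. Slco1b2 and Slco2b1, organic anion carriers, differed by -9.34 (SE 0.22) and -9.26 (SE 0.30), Slco1a4 by -8.33, Slco1a1 by -6.17 and the sodium-dependent carrier Slc10a2 by -3.59. Slco1b2 went from between 1381 and 1962 CPM in GFP livers to between 2.64 and 2.79 CPM in siScramble cultures.

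Of the synthesis genes 10 of 11 were lower. The reductases Akr1c6 (-8.79) and Akr1d1 (-8.72), the cholesterol hydroxylase Cyp46a1 (-8.37), known mainly from brain, and the acyl-CoA synthetase Slc27a2 (-5.43) led them, followed by Scp2 (-4.46) and Amacr (-4.13) of the peroxisomal steps and Cyp2c70 (-2.88), which makes muricholic acids. Cyp46a1 had only 2 counts in all siScramble cultures, 396-fold below GFP livers with a counting interval of 110 to 3271. At the canaliculus 6 of 7 exporters were lower, led by the sterol exporters Abcg5 (-5.17) and Abcg8 (-5.12). Of 14 regulators 12 were lower, with a median of -1.85 beside -4.13 for the synthesis genes. Nr1i3, the receptor CAR, fell by 9.19 (6 counts in all siScramble cultures, a 616-fold difference with a counting interval of 283 to 1678) and Klb, the co-receptor for the gut hormone FGF15, by 4.84, Rxra by 2.92 and Nr1i2 by 2.76.

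Abcc1 and Abcc4, pumps of the basolateral membrane that move bile acids and other anions back to the blood, rose in culture. Abcc4 was at 2.53, 3.52 and 0.990 CPM in GFP livers and 107, 109 and 128 CPM in siScramble cultures, a log2 fold change of 5.57 (SE 0.33, adjusted p = 1.09e-05 in edgeR). Abcc1 was at 3.32, 3.69 and 1.44 CPM and at 36.4, 34.8 and 39.2 CPM, a log2 fold change of 3.67 (SE 0.28). Neither gene had overlapping groups. The third basolateral pump tested, Abcc3, was at 670, 625 and 67.9 CPM in GFP livers and 310, 313 and 331 CPM in siScramble cultures. Its culture values lay inside the liver range, and it was not called, at a log2 fold change of -0.54 (SE 0.70, adjusted p = 0.507 in edgeR). Of the 47 genes, Hsd3b7, Ch25h, Slc51a, Slc51b, Vdr, Fgf15 and Gpbar1 had too few counts to be tested in any comparison, and Fgf15 had 0 counts in all 12 libraries. Hsd3b7, a liver enzyme of the classic route, was counted at only 3 to 16 reads per liver.

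Promoter sequence bears on the pairing of FXR with its known targets, so the windows of Abcb11 and Nr0b2 are shown, with that of Cyp8b1, which FXR lowers through SHP. Each is the 250 bases before the RefSeq transcript start on build GRCm38.p6, an earlier build than the mm39 of the counts, from a table of 32851 windows that also hold the 50 bases after the start. Windows were matched for 6 of the 10 genes, not for Cyp7a1, Cyp7b1, Baat and Slc27a5. Capitals mark matches to the FXR-RXR motif, an inverted repeat with 1 base between (AGGTCANTGACCT, at most 2 mismatches, either strand).
Abcb11, chr2:69342617-69342866, minus strand: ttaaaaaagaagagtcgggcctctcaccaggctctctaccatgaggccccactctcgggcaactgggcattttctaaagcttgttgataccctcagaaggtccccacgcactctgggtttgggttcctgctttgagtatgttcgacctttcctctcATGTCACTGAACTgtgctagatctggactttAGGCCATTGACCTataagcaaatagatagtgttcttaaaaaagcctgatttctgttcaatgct
Nr0b2, chr4:133553126-133553375, plus strand: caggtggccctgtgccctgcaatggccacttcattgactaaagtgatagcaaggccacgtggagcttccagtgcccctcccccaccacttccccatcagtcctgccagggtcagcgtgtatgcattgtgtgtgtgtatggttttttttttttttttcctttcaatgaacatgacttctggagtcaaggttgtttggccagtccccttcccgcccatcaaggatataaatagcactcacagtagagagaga
Cyp8b1, chr9:121916306-121916555, minus strand: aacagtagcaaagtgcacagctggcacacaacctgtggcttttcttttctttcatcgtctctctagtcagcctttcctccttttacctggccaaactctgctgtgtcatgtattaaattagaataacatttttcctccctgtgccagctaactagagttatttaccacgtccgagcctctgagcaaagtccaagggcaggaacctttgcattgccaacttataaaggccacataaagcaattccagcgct
The Abcb11 window held AGGCCATTGACCT at bases -63 to -51 from the start, with 1 mismatch, and ATGTCACTGAACT at -94 to -82, with 2. Such a match lay in 1.14% of all 32851 windows (374). Neither the Nr0b2 nor the Cyp8b1 window held one, nor did those of Cyp27a1, Nr1h4 or Slc10a1, which says only that these letters are not in those windows. The end of the Cyp27a1 window, unlike the others, was not found near an annotated transcript start of its gene, so its place is less sure. The HNF4A-type direct repeat AGGTCANAGGTCA, searched with at most 2 mismatches on both strands, matched in the Nr1h4 window alone among the 6 genes, and in 3.86% of all windows. The NR5A2-type site TCAAGGTCA, with at most 1 mismatch, matched in none of the 6 and in 7.46% of all windows. It overlaps the repeats in its last 6 letters.

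In the mm39 coordinates of the deposited table, the genes lie on 8 chromosomes, and all are annotated as protein-coding. Cyp7a1 (chr4:6265612-6275633, minus strand), Baat (chr4:49489422-49506557, minus strand) and Nr0b2 (chr4:133280687-133283847, plus strand) share chromosome 4. Cyp27a1 lies at chr1:74752733-74777051 on the plus strand, Abcb11 at chr2:69068626-69172960 on the minus strand and Cyp7b1 at chr3:18126114-18297502 on the minus strand. Slc27a5 lies at chr7:12722273-12732119, Cyp8b1 at chr9:121743422-121745371, Nr1h4 at chr10:89290096-89369447 and Slc10a1 at chr12:80999957-81015479, all on the minus strand. Whether counting used strand is not given in the sources used here. Abcb11 overlaps the antisense lncRNA Gm13613, which averaged 3.50 counts in livers and 0 in cultures, beside group means of 6955 and 7420 counts for Abcb11 in livers.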

How the data were processed

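The authors deposited raw, unnormalized counts of genes for all 12 libraries, and FPKM values that equal these counts divided by gene length and 1 scaling number per library (0.671 to 1.27 times its total). Per the submitters' processing notes, HISAT2, DESeq2 and genome build mm39 were used, without versions. The counting program, annotation release and strandedness are not given in the sources used here. All 12 columns matched a sample.

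A comparison used only the 6 libraries of its groups, and the difference between responses all 12, in edgeR 4.0.16 in R 4.3.3 (filterByExpr, TMM, quasi-likelihood F test, Benjamini-Hochberg over all genes tested, called at an adjusted p under 0.05). SE is the absolute log2 fold change over the square root of F, and 2 is the prior count in log2 CPM. CPM and TPM were computed from the deposited counts. The fits were tested on simulated data. Replicates of every group differed by more than counting noise, and equal replicate numbers did not pair the libraries, so no block was used. Alternatives were RLE, upper-quartile, library-total and hepatocyte-marker scaling, no filter, DESeq2 1.42.0, deposited FPKM with a pseudocount of 1 or 0.1 in limma 3.58.1, 1 fit over all 12 libraries, a replicate block and leaving out each library. Leaving out GFP liver 3 and overexpressing liver 1 together, likeness over livers alone, and retained shares without each GFP liver were added after seeing the data. Genes were named by rule: the 10 genes, called genes of the wider set (at most 20 in a comparison), or the 3 with the smallest p where none was called, and the 3 most like Cyp7a1. For 1 called gene of the wider set no value is reported here. Eprs, the genes most like Cyp7a1 over livers alone, Abcc3 in culture and Hsd3b7 were singled out after their values were seen. The 10 genes and all lists were chosen with earlier results of these data known. Figures used Python 3.11.15 and matplotlib 3.10.9.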

Additional observations from a re-analysis of the deposited data

Results flagged for a closer look

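Abhd6 itself was the only gene named here whose response differed between the systems by a test of the difference: its log2 fold change was lower by 4.79 in hepatocytes than in livers, written as -4.79 for the hepatocyte response minus the liver response, and was called in edgeR. The livers carried an ABHD6 vector and the hepatocytes an ABHD6 siRNA, so opposite directions are what the labels state. None of the 10 bile acid genes was called in that test.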

How the results depend on the processing

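In 432 recomputed fold changes of genes that the main fits tested, 394 kept direction and call and 28 turned sign (21 of them in livers, where no gene was called). A call was lost in 8 and gained in 2. The cause was not tested. Cyp7a1 and Cyp8b1 in hepatocytes, which the main fit did not test, are outside this tally, as are the Cyp8b1 calls given above. The difference between responses is outside it too. In livers no setting called any of the 10. Leaving out single libraries gave log2 fold changes of -0.0785 to 1.02 for Cyp7a1, -0.66 to 0.16 for Cyp8b1, -0.0858 to 0.27 for Cyp27a1, -1.52 to 1.96 for Cyp7b1, -0.0624 to 0.17 for Slc27a5, -0.00897 to 0.19 for Baat, -0.37 to 0.23 for Slc10a1, -0.0297 to 0.0863 for Abcb11 and -0.0577 to 0.0881 for Nr1h4. Cyp7b1 in livers also turned to 0.24 and 0.25 in deposited FPKM with pseudocounts of 1 and 0.1 and to 0.29 with the replicate number as a block. Without GFP 3 and ABHD6 OE 1 together it was 0.75 and Abcb11 was -0.0472. In hepatocytes Slc10a1 was -0.0018 in FPKM with a pseudocount of 0.1 and -0.00305 with the replicate block, and leaving out single libraries gave -0.19 to 0.16 for it and -0.0853 to 0.56 for Nr0b2. Called genes of the 10 in hepatocytes numbered 1 in DESeq2 and 0 in the fit over all 12 libraries, and 2 to 4 when leaving out single libraries. For the wider set they numbered 5 in FPKM with a pseudocount of 1, 0 in the fit over all 12 libraries and 5 to 9 when leaving out single libraries. The replicate block changed no other call: it gave 0, 2 and 10 called genes in livers, hepatocytes and culture against liver. Correlations of equal replicate numbers lay between -0.36 and 0.36 in livers and did not exceed 0.02 in hepatocytes; the numbers serve as names. In culture against liver, scaling to hepatocyte markers gave 0.90 for Cyp27a1 and 0.34 for Nr1h4, and Cyp7b1 lost its call in FPKM with a pseudocount of 1 (adjusted p = 0.0533 in limma). Depth limits Cyp7a1, Cyp8b1 and Nr0b2 in culture.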
